A study of Mus musculus with 24 samples.

Results

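Orexin-rich and orexin-poor mouse hypothalamus libraries are bulk RNA-seq libraries of 1 series that differ in how much orexin transcript they hold. They were chosen by measured values: from the CPM of 3 genes, where CPM is the share of a library's counts that a gene takes, scaled to a fixed total. A library was dropped with 1000 CPM or more of Gh (growth hormone, a pituitary transcript) or 200 CPM or more of Slc17a7 (the vesicular glutamate transporter of cortical neurons). Of the rest, libraries with at least 50 CPM of Hcrt (prepro-orexin) were called orexin-rich and those under 25 CPM orexin-poor. This gave 14 orexin-rich and 5 orexin-poor libraries of 24 in all. Between these limits lay 2 libraries, and 3 were dropped.

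The libraries came from DIO (diet-induced obese) mice with an average weight of 53 g, housed in pairs and injected daily for 5 days. The PICK1i group received 56 mg/kg mPD5, a peptide inhibitor of the scaffold protein PICK1. The PSD-95i group received 25 mg/kg UCCB01-147, a peptide inhibitor of the synaptic scaffold PSD-95, and the Saline group isotonic saline. Whole hypothalamus was flash frozen 2 hours after the last injection, and poly(A) RNA was sequenced. Each group holds 8 libraries in the labels, whereas the protocol gives 6 saline mice, and nothing states that each library is a separate mouse, so p-values measure the spread between libraries. Of the PICK1i libraries 6 were orexin-rich and 1 orexin-poor, of the PSD-95i libraries 5 and 2, and of the Saline libraries 3 and 2. The classes were made from transcript levels and not by a treatment, so a test between them asks which other genes moved with Hcrt from library to library.

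Orexin, also called hypocretin, is a neuropeptide made by a small population of neurons in the lateral hypothalamus that project widely and keep animals awake and motivated to eat. Neurons making melanin-concentrating hormone (MCH, from Pmch) lie intermingled with them as a separate population and are known for roles in feeding and sleep. Medial to both lie the arcuate and ventromedial nuclei, and the floor of the third ventricle is lined by tanycytes, specialised glia that take part in thyroid hormone and nutrient sensing. In bulk tissue, fewer cells of a type and less RNA per cell cannot be told apart.

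The upstream sequences of Hcrt and Pmch, the genes on which the comparison turns, are shown because their transcripts moved together most closely. Each sequence is the 250 bases before the RefSeq gene start (build GRCm38.p6), 5′ to 3′ on the gene's own strand, with the motif TATAAA in capitals. Hcrt lies on the minus strand (chr11:100762932-100763181) and Pmch on the plus strand (chr10:88090822-88091071).
Hcrt: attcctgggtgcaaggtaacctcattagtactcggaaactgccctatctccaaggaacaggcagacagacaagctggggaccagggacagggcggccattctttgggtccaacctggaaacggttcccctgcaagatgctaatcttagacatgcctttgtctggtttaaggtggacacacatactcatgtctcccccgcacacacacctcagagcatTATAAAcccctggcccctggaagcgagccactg
Pmch: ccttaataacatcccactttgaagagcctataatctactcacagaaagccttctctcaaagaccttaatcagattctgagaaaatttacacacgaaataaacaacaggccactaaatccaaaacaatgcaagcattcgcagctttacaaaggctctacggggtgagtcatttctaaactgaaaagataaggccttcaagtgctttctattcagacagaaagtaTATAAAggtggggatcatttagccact
TATAAA occurred once in each sequence, beginning 33 bases before the start of Hcrt and 27 bases before that of Pmch, and overlapped no other motif searched. It was present on either strand in 12.4% of 32851 RefSeq promoters of the same length. The homeodomain core TAATTA was in neither sequence and in 4.84% of all promoters.

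Hcrt spanned 54.5 CPM to 169 CPM in the orexin-rich libraries, with a median of 75.0 CPM. In the orexin-poor libraries it had 23.6 CPM in PICK1i 1, 15.3 in PSD-95i 1, 18.02 in PSD-95i 2, 12.8 in Saline 4 and 21.1 in Saline 6. These values made the classes and are a description. Just outside the limits stood PSD-95i 4 with 30.3 CPM and Saline 8 with 43.4 CPM. Saline 2 and Saline 3 were dropped with 52240 and 31690 CPM of Gh and held 11.1 and 12.2 CPM of Hcrt. PICK1i 6 was dropped with 248 CPM of Slc17a7 and held 198 CPM of Hcrt, more than any library kept. By treatment, over the libraries kept, Hcrt ran from 23.6 to 139 CPM in PICK1i, from 15.3 to 121 CPM in PSD-95i and from 12.8 to 169 CPM in Saline, so the treatment groups overlapped over most of their range.

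Pmch, the other marker of the lateral hypothalamus, followed Hcrt. It had 313 CPM at the lowest, 371 at the median and 590 at the highest in the orexin-rich libraries, against 312 in PICK1i 1, 236 in PSD-95i 1, 247 in PSD-95i 2, 230 in Saline 4 and 259 in Saline 6. The classes did not overlap for Pmch, by a margin of about 1 CPM between the lowest orexin-rich library and PICK1i 1. The means were 392 ± 70.1 CPM in 14 orexin-rich and 257 ± 32.9 CPM in 5 orexin-poor libraries (SD), a ratio of 1.53, where the Hcrt means of 93.2 and 18.2 CPM stood in a ratio of 5.13. The log2 difference of 0.58 ± 0.12 (SE) missed the threshold in the fit across all genes (edgeR adjusted p = 0.0845).

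Across the 21 libraries kept, log2 Pmch and log2 Hcrt correlated with a Pearson r of 0.92 and a Spearman correlation of 0.91. Both permutation p-values were 2e-05, the smallest that 100000 permutations can give, and 3e-05 after adjustment over the 3 relations computed. Without Saline 4 and PSD-95i 1, the libraries farthest from the median of Hcrt, r was 0.89 (adjusted permutation p = 3e-05). Within the 14 orexin-rich libraries r was 0.80 (adjusted permutation p = 0.00042) and the Spearman correlation 0.75 (adjusted permutation p = 0.0031). Both genes of a library share its total count.

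**Figure D1:**
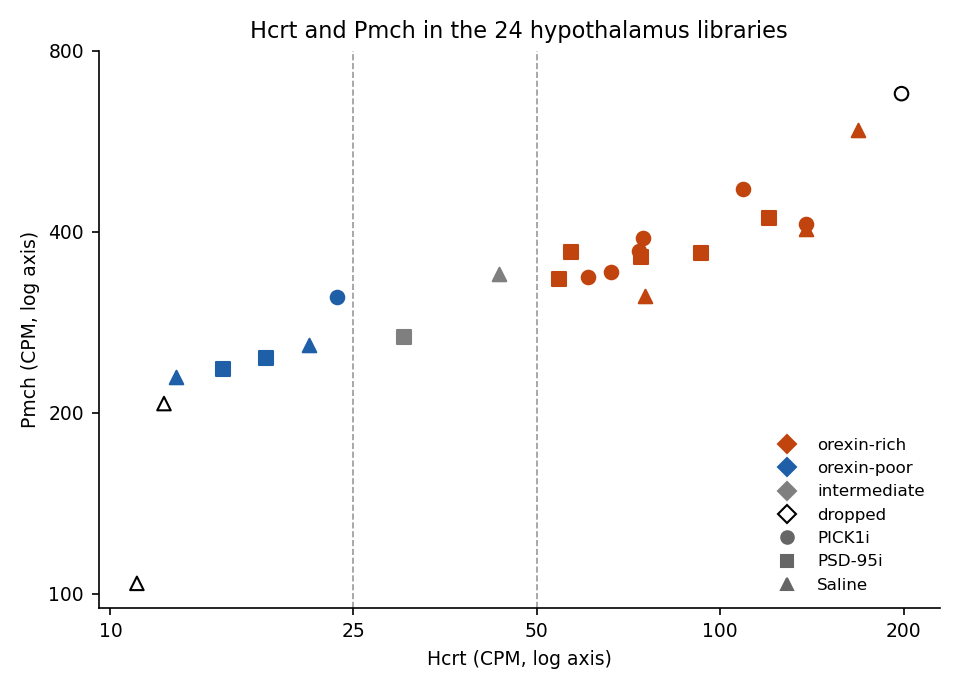
Hcrt (x axis) and Pmch (y axis) in CPM on log axes, 1 point for each of the 24 libraries, coloured by class and shaped by treatment, with dashed lines at 25 and 50 CPM of Hcrt. Pmch is at 313 CPM or more in every orexin-rich library and at 312 CPM or less in every orexin-poor one, and all 3 treatments lie along the same band.

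Genome-wide, few genes separated the classes. With treatment as a covariate, edgeR's quasi-likelihood test called 2 of 15271 genes at an adjusted p under 0.05 (0.0131%), 1 higher (0.00655%) and 1 lower (0.00655%), while 1208 genes (7.91%) had an unadjusted p under 0.05. Adcy7, an adenylyl cyclase that makes cyclic AMP (chr8:88272403-88329962), rose in the orexin-rich libraries. It had 24.4 CPM at the lowest, 31.6 at the median and 38.1 at the highest in orexin-rich libraries, against 16.96 in PICK1i 1, 21.9 in PSD-95i 1, 18.5 in PSD-95i 2, 16.4 in Saline 4 and 24.4 in Saline 6. All 14 orexin-rich libraries lay above the orexin-poor median, and the classes overlapped only at Saline 6. Its log2 difference was 0.66 ± 0.10 (SE), with an edgeR adjusted p of 0.0234.

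C4b, which encodes complement component 4 (chr17:34728380-34743882), fell in the orexin-rich libraries. Its values were 96.2 CPM at the lowest, 114 at the median and 132 at the highest in orexin-rich libraries, against 125 in PICK1i 1, 135 in PSD-95i 1, 148 in PSD-95i 2, 172 in Saline 4 and 165 in Saline 6. All 14 orexin-rich libraries lay below the orexin-poor median, and PICK1i 1 lay inside their range. The log2 difference was -0.37 ± 0.06 (SE; edgeR adjusted p = 0.0234). C4b has a near-identical neighbour, C4a, with which estimated counts could be shared; C4a had a log2 difference of -0.22 ± 0.11 (edgeR adjusted p = 0.653).

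The calls depended on single libraries. No gene was called without PICK1i 1, Saline 5, PSD-95i 2, PSD-95i 5 or PSD-95i 8, and 1 was called without Saline 1, Saline 4, Saline 6 or PSD-95i 6, whereas 6 were called without PICK1i 8 and 44 without PICK1i 2; DESeq2 called 54 on the same libraries. Library numbers in the labels, whose meaning is not stated, also moved with the classes: the orexin-poor libraries are numbers 1, 8, 10, 11 and 12 of 24, and with the number as a covariate 0 genes were called.

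The genes next in order of p had larger or similar differences without passing. Cdh23, a cadherin best known from the tip links of inner ear hair cells, had a log2 difference of 1.30 ± 0.25 (edgeR adjusted p = 0.0685): 2.81, 7.84 and 10.9 CPM at the lowest, median and highest in orexin-rich libraries, against 2.50, 3.43, 2.68, 2.48 and 4.89 CPM in PICK1i 1, PSD-95i 1, PSD-95i 2, Saline 4 and Saline 6. Smim17 spanned 36.1 to 50.8 CPM in orexin-rich and 30.7 to 35.4 CPM in orexin-poor libraries without overlap (log2 difference 0.36 ± 0.07, edgeR adjusted p = 0.0552). Dlx1, a transcription factor of GABA neurons, had a log2 difference of 0.56 ± 0.11 (edgeR adjusted p = 0.0784). On the other side stood Rin1, a Ras effector, at -0.60 ± 0.11, Creb3l1, a transcription factor released from the endoplasmic reticulum, at -0.59 ± 0.11 (edgeR adjusted p = 0.0552 each), and Klf5 at -0.54 ± 0.11 (edgeR adjusted p = 0.0768). For 12 genes (0.0786% of those tested) every orexin-rich library lay above every orexin-poor one, Pmch, Smim17, Cygb and Dlx6 among them, and for 3 genes (0.0196%) below, Six3os1 and Hist1h2be among them. Six3os1 is antisense to Six3, and Hist1h2be has near-identical histone copies, so their counts could be shared.

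**Figure D2:**
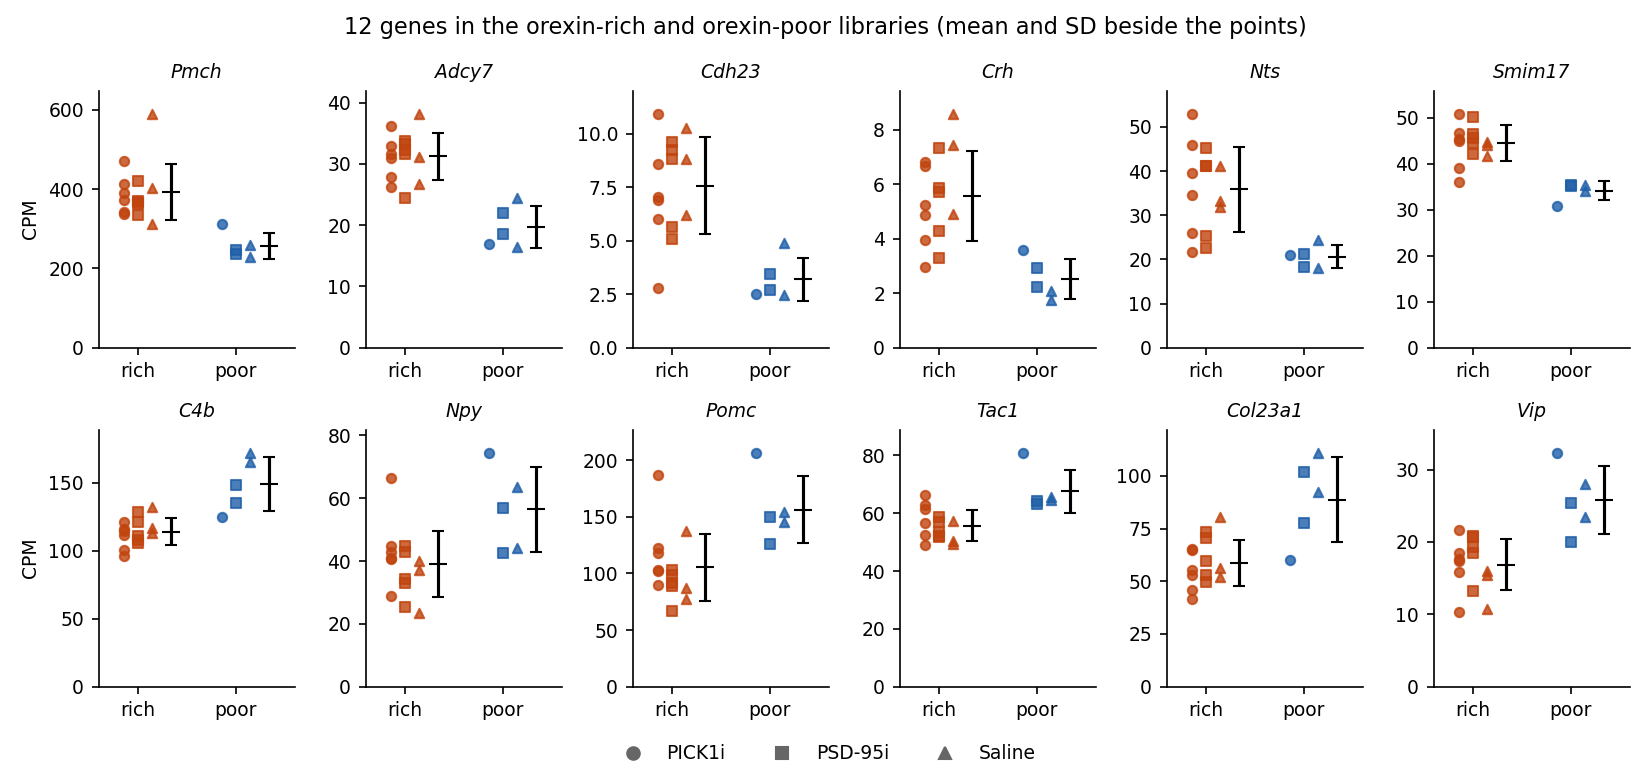
CPM of 12 genes in each orexin-rich library (left, n = 14) and orexin-poor library (right, n = 5), shaped by treatment, with the mean and SD beside the points and the y axis from 0. Pmch and Smim17 do not overlap between the classes, Adcy7 overlaps at 1 orexin-poor library, and C4b is below the orexin-poor median in all 14 orexin-rich libraries.

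Genes of lateral hypothalamic neurons lay on both sides, so the libraries are named here by orexin and not by the region. Of 18 tested, besides Hcrt, none was called; 7 were higher and 6 lower at an unadjusted p under 0.05, where 3.75% and 4.16% of all genes were, and the median log2 difference was 0.05 against -0.001 for all genes. Their summed level was 1091 to 1531 CPM in orexin-rich and 1097 to 1172 CPM in orexin-poor libraries, and overlapped. The list member with the smallest p, Tac1, the substance P precursor, was lower, with a log2 difference of -0.35 ± 0.07 (edgeR adjusted p = 0.0845). For Tac1, 13 orexin-rich libraries lay below the orexin-poor median and 1 above. Higher values were seen for Crh, corticotropin-releasing hormone, with a log2 difference of 1.16 ± 0.25 (edgeR adjusted p = 0.0957), for Nts, neurotensin, with 0.77 ± 0.19 (edgeR adjusted p = 0.172), and for Lhx9, a transcription factor of orexin neurons, with 1.03 ± 0.29 (edgeR adjusted p = 0.247). Lhx9 reached 9.80 CPM in 1 orexin-rich library, and 6.46 CPM in Saline 6 among the orexin-poor. Crh had 2.96, 5.48 and 8.58 CPM at the lowest, median and highest in orexin-rich libraries, against 3.57 in PICK1i 1, 2.94 in PSD-95i 1, 2.23 in PSD-95i 2, 1.74 in Saline 4 and 2.10 in Saline 6.

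Other transcripts known from orexin and MCH neurons lay on both sides, with Tacr3 higher and Pdyn, Nptx2 and Cartpt lower. Pdyn, the dynorphin precursor that orexin neurons also release, had 77.3 CPM at the median of orexin-rich libraries, range 60.6 to 113, against 99.3 in PICK1i 1, 99.97 in PSD-95i 1, 107 in PSD-95i 2, 106 in Saline 4 and 112 in Saline 6. Its log2 difference was -0.38 ± 0.10 (edgeR adjusted p = 0.18). Nptx2, a pentraxin that clusters glutamate receptors and is present in orexin neurons, stood at -0.32 ± 0.10 (edgeR adjusted p = 0.307). Of transcripts held by MCH neurons, Cartpt stood at -0.35 ± 0.12 (edgeR adjusted p = 0.434) and Tacr3, the neurokinin B receptor, at 0.35 ± 0.15 (edgeR adjusted p = 0.554). Qrfp, a feeding peptide of the lateral hypothalamus, stood at -0.39 ± 0.16 (edgeR adjusted p = 0.56), and at -0.16 without Saline 4. Pdyn, Nptx2, Cartpt and Tacr3 are each made by other hypothalamic neurons as well. Of the orexin receptors, Hcrtr1 stood at 0.19 ± 0.14 and Hcrtr2 at -0.11 ± 0.13 (edgeR adjusted p = 0.83 and 0.926).

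Arcuate genes were mostly lower, without a call over the 19 libraries. Of 16 tested, 12 were below 0 on the log2 scale with a median of -0.34, and 8 were lower and 1 higher at an unadjusted p under 0.05. Over all genes tested, 50.4% were below 0, and 4.16% were lower and 3.75% higher at that p. The same shares stand beside the counts of the lists that follow. Pomc, the precursor of the satiety peptide alpha-MSH, had 66.7, 100.3 and 187 CPM at the lowest, median and highest in orexin-rich libraries, against 207 in PICK1i 1, 126 in PSD-95i 1, 149.7 in PSD-95i 2, 154 in Saline 4 and 145 in Saline 6 (log2 difference -0.68 ± 0.14, edgeR adjusted p = 0.0845). Npy, a peptide that drives feeding, had 23.6, 40.3 and 66.4 CPM at the lowest, median and highest in orexin-rich libraries, against 74.4 in PICK1i 1, 42.7 in PSD-95i 1, 57.0 in PSD-95i 2, 63.7 in Saline 4 and 44.2 in Saline 6 (log2 difference -0.66 ± 0.16, edgeR adjusted p = 0.166). Pomc is also a pituitary transcript, at 13910 and 16810 CPM in the dropped Saline 2 and Saline 3, and 2 pituitary genes lay on the same side as Pomc. Cga, the shared subunit of pituitary glycoprotein hormones, had 0, 0.145 and 9.19 CPM at the lowest, median and highest in orexin-rich libraries, against 0 in PICK1i 1, 3.99 in PSD-95i 1, 4.77 in PSD-95i 2, 7.47 in Saline 4 and 13.1 in Saline 6 (log2 difference -2.50, edgeR adjusted p = 0.444), and 13 of 14 orexin-rich libraries lay below the orexin-poor median. Tbx19, the factor of pituitary Pomc cells, stood at -0.91 ± 0.22 (edgeR adjusted p = 0.172), with 14 of 14 below. The pituitary list, which holds neither Gh nor Pomc, summed to 10.3 to 42.5 CPM in orexin-rich and 19.1 to 31.8 CPM in orexin-poor libraries, and Gh reached 41.4 CPM in orexin-rich and 2.44 CPM in orexin-poor libraries; their part in the Pomc values was not tested. PICK1i 1 held the highest and PICK1i 2 the next highest level of both Pomc and Npy among the 19 libraries. Agrp, made by the same neurons as Npy, stood at -0.54 ± 0.24 (edgeR adjusted p = 0.59), Tbx3, a transcription factor of arcuate neurons, at -0.52 ± 0.13 (edgeR adjusted p = 0.172) and Ghrh at -0.55 ± 0.21 (edgeR adjusted p = 0.482). Slc6a3, the dopamine transporter, stood apart at 1.77 ± 0.74 (edgeR adjusted p = 0.551). It exceeded 40 CPM in Saline 5, PSD-95i 5, Saline 7, PICK1i 7 and PICK1i 8, which were all orexin-rich. The orexin-rich libraries were split, with 7 above and 7 below the orexin-poor median of 7.34 CPM for Slc6a3. The midbrain dopamine factor En1 reached 6.87 CPM in PICK1i 8. The summed level of the midbrain dopamine list was 180.3 to 432 CPM in orexin-rich and 183 to 234 CPM in orexin-poor libraries, and its part in these values was not tested.

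Of the other medial lists, the ventromedial and suprachiasmatic ones lay on the lower side and the dorsomedial one on both. For comparison, 50.4% of all genes tested were below 0. All 10 ventromedial genes tested were below 0 (median -0.19; 5 lower and 0 higher at an unadjusted p under 0.05), among them Nr5a1, the transcription factor that defines this nucleus, at -0.56 ± 0.15 (edgeR adjusted p = 0.178) and Fezf1 at -0.37 ± 0.11 (edgeR adjusted p = 0.247). Nr5a1 spanned 12.7 to 27.3 CPM in orexin-rich and 25.8 to 31.8 CPM in orexin-poor libraries. All 9 genes of the suprachiasmatic nucleus, the circadian clock, were below 0 (median -0.41; 6 lower and 0 higher). Vip, its peptide of light-responsive neurons, had 10.4, 17.5 and 21.7 CPM at the lowest, median and highest in orexin-rich libraries, against 32.3 in PICK1i 1, 25.3 in PSD-95i 1, 19.96 in PSD-95i 2, 23.5 in Saline 4 and 27.9 in Saline 6 (log2 difference -0.69 ± 0.14, edgeR adjusted p = 0.0845). Six6 stood at -0.47 ± 0.12 (edgeR adjusted p = 0.172) and Rgs16 at -0.47 ± 0.13 (edgeR adjusted p = 0.209). Of 14 mammillary and tuberomammillary genes 11 were below 0 (median -0.17; 1 higher and 5 lower), with Hdc, the histamine-making enzyme, at -0.54 ± 0.15 (edgeR adjusted p = 0.243). Of 8 dorsomedial genes 5 were below 0 (median -0.09; 1 higher and 2 lower), with the transcription factor Hmx2 at 0.52 ± 0.19 (edgeR adjusted p = 0.444) and the peptide gene Npvf at 0.34 ± 0.20 (edgeR adjusted p = 0.717).

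Not all neuroendocrine peptides lay on that side. Of 12 neuroendocrine genes tested, Crh among them, 7 were above 0 and 5 below (median 0.08). At an unadjusted p under 0.05, 3 of these were higher and 3 lower. Avp, vasopressin, stood at -0.41 ± 0.15 (edgeR adjusted p = 0.446) and at -0.24 without PICK1i 1, with its 2 highest levels of 551 CPM in PICK1i 1 and 523 CPM in Saline 6, whereas Oxt, oxytocin, stood at 0.08 ± 0.19 (edgeR adjusted p = 0.972) and Trh, thyrotropin-releasing hormone, at 0.35 ± 0.17 (edgeR adjusted p = 0.62). Trh stood at 0.58 without Saline 6 and 0.22 without PSD-95i 2. Of 12 zona incerta and subthalamic genes 9 were above 0 (median 0.18; 3 higher and 0 lower at an unadjusted p under 0.05), with Lhx6, a factor of GABA neurons there, at 1.07 ± 0.28 (edgeR adjusted p = 0.187) and Dlx6 at 0.29 ± 0.09 (edgeR adjusted p = 0.346). Of 7 glutamate and GABA neuron genes 6 were above 0 (median 0.17; 4 higher and 0 lower), led by Gad2, which makes GABA, at 0.42 ± 0.14 (edgeR adjusted p = 0.413); it stood at 0.26 without PICK1i 1 and at 0.065 within Saline.

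Tanycyte genes were lower nearly throughout, again without a call between the classes. Where 50.4% of all genes were below 0, 13 of 14 tanycyte genes were (median -0.34, with 1 higher and 8 lower at an unadjusted p under 0.05). Their summed level was 312 to 486 CPM in orexin-rich and 384 to 602 CPM in orexin-poor libraries. Rax, the transcription factor that marks tanycytes, stood at -0.88 ± 0.19 (edgeR adjusted p = 0.0957). Col23a1, a collagen they make, had 41.5, 55.8 and 80.6 CPM at the lowest, median and highest in orexin-rich libraries, against 60.2 in PICK1i 1, 77.6 in PSD-95i 1, 102 in PSD-95i 2, 111 in Saline 4 and 92.5 in Saline 6 (log2 difference -0.54 ± 0.12, edgeR adjusted p = 0.0957). Of the orexin-poor libraries, PICK1i 1 and PSD-95i 1 lay inside the orexin-rich range. Gpr50, a receptor related to the melatonin receptors, stood at -0.48 ± 0.11 (edgeR adjusted p = 0.162).

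Among other glia, neurons and neighbouring regions no list member was called either. For comparison, 50.4% of all genes tested were below 0 and 49.6% above. Gfap, an astrocyte filament protein that tanycytes also make, had 222 to 357 CPM in orexin-rich and 337 to 497 CPM in orexin-poor libraries (log2 difference -0.46 ± 0.09, edgeR adjusted p = 0.0768), whereas the 12 astrocyte genes had a median of 0.01. Of 12 microglial genes 11 were below 0 (median -0.13; 3 lower and 0 higher at an unadjusted p under 0.05), whereas of 18 oligodendrocyte and myelin genes 16 were above 0 (median 0.10; 1 higher and 0 lower) and of 12 pan-neuronal genes 10 (median 0.08; 4 higher and 0 lower). Of 15 immediate early genes, which mark recent neuronal activity, 13 were below 0 (median -0.25, with 6 lower and 0 higher), with Junb at -0.49 ± 0.12 (edgeR adjusted p = 0.166). The summed level of this list overlapped and was not lower at the median. It was 208 to 306 CPM (median 256) in orexin-rich and 239 to 307 CPM (median 248) in orexin-poor libraries. Of 12 striatal genes 9 were below 0 (median -0.15; 1 higher and 6 lower), with Drd1 at -0.61 ± 0.15 and Drd2 at 0.64 ± 0.20 (edgeR adjusted p = 0.162 and 0.358). The 13 cortical and hippocampal genes had a median of -0.02 with 4 lower and 0 higher, and their summed level was 906 to 1038 CPM in orexin-rich and 889 to 1466 CPM in orexin-poor libraries, the highest being Saline 6, where Slc17a7 was 81.9 CPM. The preoptic and septal list had a median of 0.22 (9 tested), the thalamic list 0.01 (11 tested), the endothelial and mural list -0.08 (14 tested) and the mitochondrially encoded genes -0.11 (13 tested, 12 below 0). The summed level of the mitochondrially encoded genes was not lower at the median, at 90060 CPM in orexin-rich and 85420 CPM in orexin-poor libraries. Of 4 pituitary genes tested 2 were lower and 0 higher (median -0.43). The targets of the inhibitors, Dlg4 (PSD-95) at -0.03 ± 0.05 and Pick1 at -0.07 ± 0.07, had edgeR adjusted p-values of 0.959 and 0.90.

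**Figure D3:**
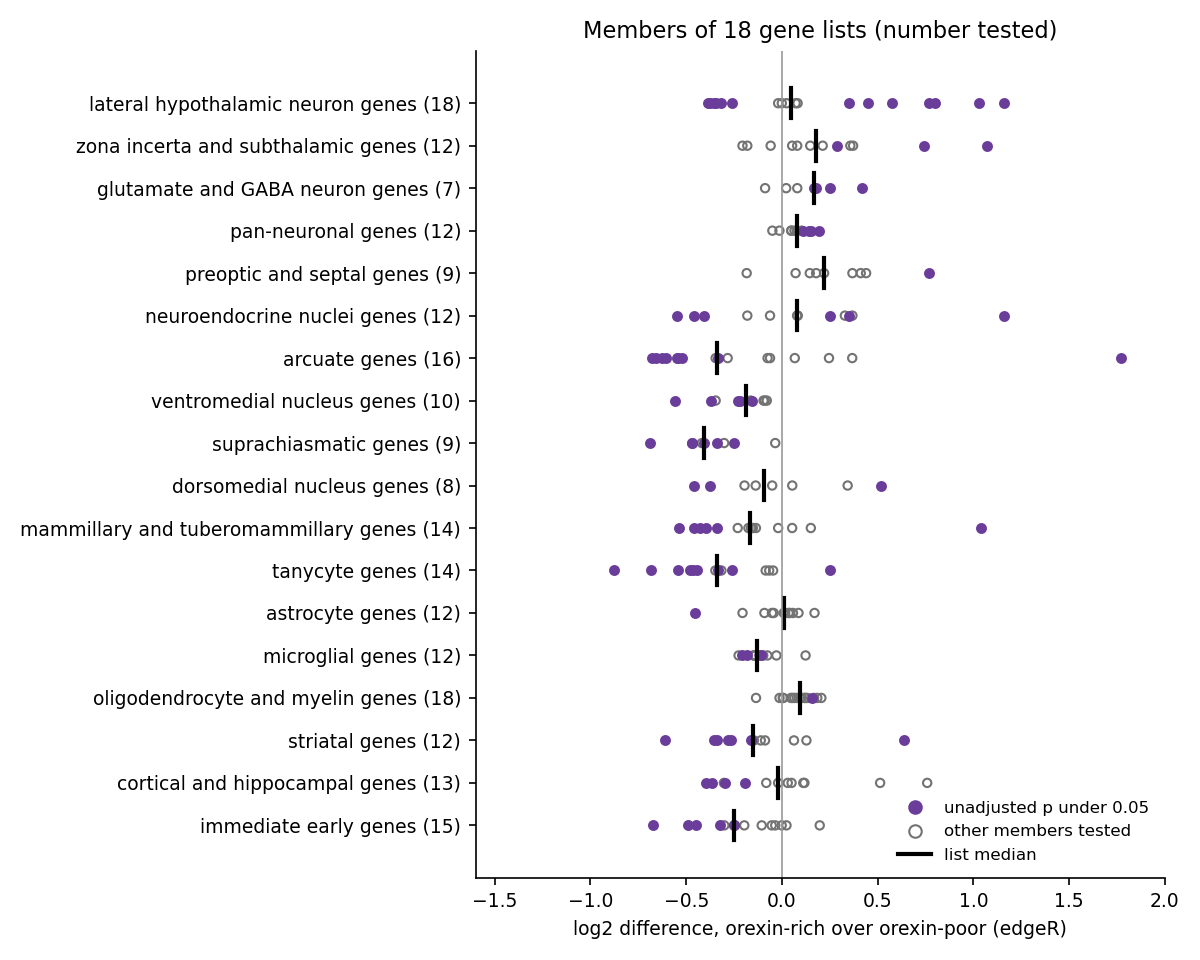
Log2 difference (orexin-rich over orexin-poor, edgeR) of every tested member of 18 gene lists, filled where the unadjusted p was under 0.05, with a bar at the list median. Ventromedial and suprachiasmatic genes all lie below 0, tanycyte genes all but 1, while lateral hypothalamic genes fall on both sides around a median of 0.05.

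Depth was 6290516 to 9228858 counts in orexin-rich and 5601717 to 8172731 in orexin-poor libraries. The mitochondrially encoded share was 8.51% to 13.99% (median 10.13%) in orexin-rich and 9.32% to 16.6% (median 9.598%) in orexin-poor libraries, with the highest value in PICK1i 1. The leptomeningeal list summed to 307 to 4141 CPM in orexin-rich and 427 to 2408 CPM in orexin-poor libraries. The part of these measures in the class differences was not tested, beyond the fit with the mitochondrial share as a covariate, which called 15 genes.

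Using Hcrt as a continuous measure brought in the intermediate libraries and called more genes. Across the 21 libraries kept, with treatment as a covariate, 39 of 15269 genes (0.255%) had a slope on log2 Hcrt at an edgeR adjusted p under 0.05, 19 positive (0.124%) and 20 negative (0.131%), and both genes called between the classes were among them. A slope here is the log2 change in a gene for each log2 unit of Hcrt. The gene with the smallest p was Pmch, with a slope of 0.27 ± 0.03 (SE; edgeR adjusted p = 7.38e-05). Crh followed with 0.52 ± 0.08 and Adcy7 with 0.27 ± 0.04 (edgeR adjusted p = 0.00251 each). Cdh23 at 0.52 ± 0.10, Nts at 0.32 ± 0.06, Rnd1, a small GTPase, at 0.13 ± 0.02, and Cygb, cytoglobin, at 0.10 ± 0.02 also passed (edgeR adjusted p = 0.0195, 0.0281, 0.0195 and 0.0281).

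Among the negative slopes were arcuate, tanycyte and tuberomammillary genes. Npy had a slope of -0.30 ± 0.05 (edgeR adjusted p = 0.0166) and Tbx3 -0.24 ± 0.05 (edgeR adjusted p = 0.0195), which made 2 of the arcuate list. Of the tanycyte list 3 genes were called, among them Col23a1 at -0.24 ± 0.04 (edgeR adjusted p = 0.0125) and Gpr50 at -0.21 ± 0.04 (edgeR adjusted p = 0.0222). Hdc had -0.25 ± 0.05 (edgeR adjusted p = 0.03), Gfap -0.18 ± 0.04 (edgeR adjusted p = 0.0338), Junb -0.21 ± 0.04 (edgeR adjusted p = 0.0281), and Tac1, the substance P precursor of lateral hypothalamic and striatal neurons, -0.15 ± 0.03 (edgeR adjusted p = 0.0222). C4b had -0.14 ± 0.02 (edgeR adjusted p = 0.00928) and Creb3l1 -0.24 ± 0.04 (edgeR adjusted p = 0.00537). In the lateral hypothalamic list 3 members had a positive slope, Pmch, Crh and Nts, and 1 a negative slope, Tac1, while Pomc (edgeR adjusted p = 0.0751), Agrp (0.303) and Lhx9 (0.236) were not called. Crh is also in the neuroendocrine list and Nts in the preoptic and septal list, and each was the 1 positive slope called there.

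The number of slopes called moved with single libraries, from 9 without PSD-95i 5, 10 without PSD-95i 2, 11 without Saline 4, 14 without PICK1i 1 and 22 without Saline 7 up to 73 without PICK1i 2 and 116 without Saline 1. Of 12 genes refitted under 26 alternatives, Pmch, Crh and Adcy7 were called in all 26, C4b in 25, Col23a1 and Tbx3 in 22, Npy in 21, Gpr50 in 19, Nts in 17, Hdc in 15 and Gfap in 13. With the library number as a covariate 9 slopes were called, those of Pmch, Crh, Adcy7 and C4b among them.

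**Figure D4:**
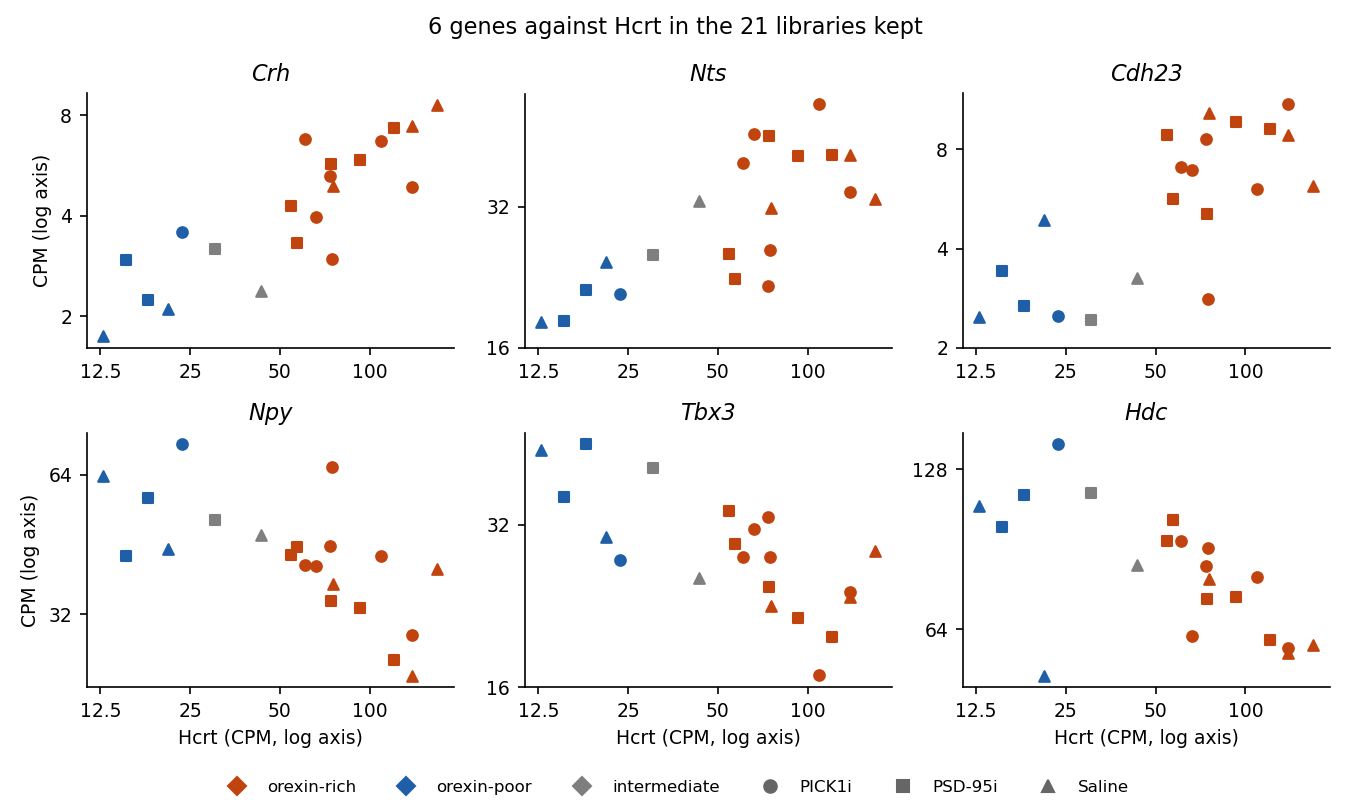
CPM of 6 genes (y axes, log) against Hcrt in CPM (x axes, log) in the 21 libraries kept, coloured by class and shaped by treatment. Crh, Nts and Cdh23 are higher and Npy, Tbx3 and Hdc lower toward high Hcrt, and the orexin-poor library with the lowest Hdc (Saline 6, 52.4 CPM) departs from the others.

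Ranked by likeness to Hcrt, Pmch came first of 11677 genes with a mean of at least 5 CPM. The measure was Pearson's r of log2 CPM over 21 libraries after subtracting each treatment's mean, which also follows library composition and total count, and was 0.92 for Pmch. Smim17 (0.85), Cygb (0.85), Ndst3, a heparan sulfate-modifying enzyme (0.83), Adcy7 (0.82), Rnd1 (0.81), Plch1, a phospholipase C (0.80), Nrip2 (0.77) and Dlx6 (0.76) came next, with 1 transcript known by a clone name between Rnd1 and Plch1. At the other end stood Creb3l1 (-0.83), Mamdc2 (-0.81), Tac1 (-0.80), Krt77 (-0.80) and C4b (-0.79).

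Within a treatment, the differences could be compared in the PSD-95i and the Saline libraries, with 5 orexin-rich and 2 orexin-poor libraries in PSD-95i and 3 orexin-rich and 2 orexin-poor libraries in Saline. In PSD-95i the orexin-poor libraries are numbers 11 and 12 in the labels, and the orexin-rich ones 15, 17, 18, 21 and 22. Class and library number cannot be told apart in the PSD-95i calls. Pmch differed by 0.62 ± 0.08 in PSD-95i (edgeR adjusted p = 0.00189) and by 0.85 ± 0.22 in Saline (edgeR adjusted p = 0.922). For Adcy7 the values were 0.61 ± 0.13 in PSD-95i (edgeR adjusted p = 0.0482) and 0.68 ± 0.20 in Saline (edgeR adjusted p = 0.922). For C4b they were -0.30 ± 0.07 in PSD-95i (edgeR adjusted p = 0.104) and -0.47 ± 0.08 in Saline (edgeR adjusted p = 0.767). Crh stood at 1.02 ± 0.30 in PSD-95i and 1.88 ± 0.33 in Saline, with edgeR adjusted p-values of 0.211 and 0.767. Pomc was called within PSD-95i at -0.62 ± 0.11 (edgeR adjusted p = 0.0198), but not within Saline at -0.57 ± 0.20 (edgeR adjusted p = 0.922). Trh was called within PSD-95i at 0.80 ± 0.08 (edgeR adjusted p = 0.000234) and stood at -0.02 ± 0.27 within Saline (edgeR adjusted p = 0.997). Dlx1, Fezf1 and Slc32a1, the vesicular GABA transporter, were also called within PSD-95i at 0.63, -0.48 and 0.36 (edgeR adjusted p = 0.0259, 0.0496 and 0.0441). Cga, a pituitary transcript with few counts in most orexin-rich libraries, was called within Saline (edgeR adjusted p = 0.0311). The test of class by treatment over these 12 libraries called 0 of 15309 genes (0%), with 525 at an unadjusted p under 0.05 and 0 by DESeq2. PICK1i holds 1 orexin-poor library and was not fitted by itself.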

How the data were processed

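Poly(A) RNA was sequenced in 24 libraries as 52-base read pairs. The deposited gene table holds estimated counts, which were made by the authors with STAR and Salmon on GRCm38 after bcl2fastq 2.20.0, per the submitters' processing notes; annotation and strand setting: not given in the sources used here, and 94.3% of values were whole within 0.001. Counts were rounded and analysed in R 4.3.3 with edgeR 4.0.16 (TMM scaling, mean count of at least 10, Benjamini-Hochberg adjustment over all genes tested, threshold 0.05), fitting class and treatment over 19 libraries. Hcrt, Gh and Slc17a7, which made the classes, were not tested. A list is described by counts and its median. Alternatives used DESeq2 1.42.0 and limma 3.58.1. CPM values are shares of the library total with no length correction, so levels of different genes are not compared. Standard errors were computed from the log2 difference and F.

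Members, gene lists and tests were chosen with earlier results of these data known. Named genes are fixed hypothalamic peptides and marker genes, the called genes, those with the smallest p where fewer than 10 passed, up to 6 of each of 31 lists by p, and the 10 most like Hcrt. Others named, such as Ghrh, C4a, the orexin receptors and slope genes, were chosen after their values were seen. On simulated counts for the orexin-rich against orexin-poor comparison (15215 genes), the edgeR step recovered 95% of 100 genes changed 1.5-fold and 100% of 100 changed 2-fold, and called 10 unchanged genes. The simulation gave every gene the same spread between libraries and changed only genes with higher counts. These shares therefore do not give the recovery to be had in the real libraries. Libraries were not paired by replicate number in the main fit. Gene positions are from GENCODE M21 (GRCm38), in which 45143 of 45706 identifiers were found. Of the gene results, 1 is not reported here.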

Additional observations from a re-analysis of the deposited data

Results flagged for a closer look

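In the 5 orexin-poor libraries, 4 of 53 genes examined had 1 library far from the other 4, where chance flags about 1 gene in 20. Tac1 was highest in PICK1i 1, at 80.9 CPM. Lhx9 was highest in Saline 6, at 6.46 CPM. Nr5a1 was highest in Saline 4, at 31.8 CPM, and Cygb was lowest in Saline 4, at 101 CPM.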

How the results depend on the processing

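The 2 genes called between the classes became 52 with no filter on low counts (19 higher, 33 lower, 14 of them in a gene list), 54 by DESeq2 (24, 30 and 16), 6 with a robust prior (3 and 3), 4 with no covariate (2 and 2) and 15 with the mitochondrial share as a covariate (6, 9 and 4). The cortical list level as a covariate gave 2 lower. Classes split at 50 CPM gave 5 (2 higher, 3 lower, 2 in a list), none dropped 9 (7, 2 and 1), log2 Hcrt as a continuous measure 39 (19, 20 and 12), PSD-95i alone 43 (14, 29 and 9), and Saline alone 2 (0 higher, 2 lower, 1 in a list). Library number as a covariate, classes split at 25 CPM and classes by the median of Pmch gave 0 calls in either direction. Without Saline 6 and Saline 7, chosen after seeing the data, 1 gene was called and 0 lower. Leaving out 1 library at a time gave 0 to 44 calls, 0 to 14 higher, 0 to 30 lower and 0 to 11 in a list. The cause of these changes was not tested. The gene lists name 404 genes, where the main fit tested 15271. Whether listed genes were called more often than others was not tested. RLE scaling, a stricter filter, filterByExpr and limma-voom each gave 2 calls.

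Replicate numbers were shared between groups. The 24 same-numbered pairs correlated by -0.226 to 0.184 in their deviations from the group means, with 5 over 0.1. Their median was 0.021, against 0.004 for pairs with other numbers. The main fit did not pair libraries, though such correlations cannot exclude a link between same-numbered ones. With the replicate block 0 genes were called (0 higher, 0 lower), Slc6a3 stood at -0.61, En1 at -0.51 and Oxt at -0.077.

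Slopes on Hcrt called numbered 39, against 112 by DESeq2, 9 with the library number and 85 with the mitochondrial share as a covariate, and 9 to 116 leaving out 1 library. These alternatives were chosen after seeing the data.

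Of 53 genes under the alternatives, 14 of 2052 values turned their direction. Oxt was -0.0095 with the library number and -0.041 to 0.28 leaving out 1 library. Drd2 was -0.25 and Dlg4 0.050 with none dropped. Within PSD-95i Avp was 0.038 and Dlg4 0.010, and within Saline Trh was -0.016 and Pick1 0.029. Dlg4 was 0.0093 without Saline 6 and Saline 7, and -0.052 to 0.0024 leaving out 1 library. List medians kept their sign in 38 alternatives for arcuate, ventromedial, suprachiasmatic, tanycyte and immediate early genes (below 0) and for glutamate and GABA neuron genes (above 0); that of the lateral hypothalamic list ran from -0.01 to 0.17. Depth limits genes of a few CPM, such as Crh and Lhx9, to few counts per library.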
